A study of Mus musculus with 8 samples.

Results

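The 10 genes described here encode subunits of the transcription factor NF-κB (Nfkb1, Nfkb2, Rela, Relb), its inhibitors (Nfkbia, Nfkbie, Tnfaip3) and 3 genes that NF-κB is known to switch on (Birc3, Tnfaip2, Icam1). They were taken by name out of 55450 gene identifiers in the count files, with earlier results of these data known. All 10 passed the filter on low counts that 14641 genes passed. RNA was measured in PyMT-1099 cells, mouse breast cancer cells whose tumour arose in a transgenic animal expressing polyoma middle T antigen in the mammary gland. There were 4 groups of 2 libraries: AGPS KO cells kept for 10 days with 2 ng/ml of TGF-β, parental cells treated in the same way, untreated AGPS KO cells, and untreated parental cells. AGPS is the peroxisomal enzyme that forms the ether bond of ether lipids. Whether the KO line is 1 clone, and whether the replicates came from separate cultures, is not stated in the labels, so the p-values measure only the spread between these libraries.

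NF-κB is a dimer of Rel proteins that waits in the cytoplasm, bound by IκB inhibitors. Signals from tumour necrosis factor, interleukin-1 and Toll-like receptors lead to phosphorylation and loss of the IκB proteins, and the dimer then enters the nucleus and binds κB sites. Among the genes it switches on are those of its own subunits and inhibitors, which gives feedback, and it is also known for roles in survival and inflammation in mammary tumour cells.

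In KO cells all 10 genes had a fitted level below that of parental cells, both with TGF-β and untreated. Of all 14641 genes tested, 7177 with TGF-β and 7254 untreated had a fitted level below that of parental cells. The untreated direction of Icam1 and of Tnfaip2 reversed when 1 library was left out. Nfkb1, Nfkb2, Tnfaip3 and Birc3 were lower in KO cells in both conditions, to between 45.7% and 71.8% of the parental level, and Nfkbia was lower in untreated KO cells. With TGF-β, Nfkb2, Rela and Tnfaip3 rose and Nfkbia fell in both lines. No gene of the 10 had a TGF-β change that differed between the lines past the threshold, an adjusted p under 0.05 by edgeR's quasi-likelihood test. For scale, 17.9% of all genes tested differed between KO and parental cells with TGF-β (11.1% lower) and 13.7% untreated (8.94% lower), 41.4% changed with TGF-β in KO cells and 42.5% in parental cells, and the TGF-β change of 2.40% differed between the lines. Levels below are CPM (a gene's share of its library's counts, set to a common scale) after TMM scaling, and changes are on the log2 scale with their standard error (SE). Each p is adjusted by Benjamini-Hochberg over the 14641 genes tested.

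Sequences upstream of these genes are shown because members of a feedback loop can carry the sites of the factor they encode or restrain. Of the 10 genes, 8 matched the RefSeq promoter table of GRCm38.p6, which gives 250 bases before and 50 bases after each start; Nfkb1 and Relb did not match. The κB consensus was searched on both strands as GGGRNWYYCC (R is A or G, N any base, W is A or T, Y is C or T). It was found in at least 1 window of 4 genes, Nfkb2, Nfkbia, Nfkbie and Tnfaip3, and in none of the windows of Rela, Tnfaip2, Birc3 and Icam1. Near matches were not counted, such as tggaaattcc in the Icam1 window, so a gene without a match can still hold a κB-like site. Across the table, 4.51% of 32851 promoters and 5.14% of 27025 genes held a match. Below, capitals mark the bases of a match, read 5′ to 3′ along the gene; the Rela window is shown as that of a subunit gene without one. Nfkb2 has 3 windows and Tnfaip3 has 2 in the table, and the first of each is shown.
Nfkb2: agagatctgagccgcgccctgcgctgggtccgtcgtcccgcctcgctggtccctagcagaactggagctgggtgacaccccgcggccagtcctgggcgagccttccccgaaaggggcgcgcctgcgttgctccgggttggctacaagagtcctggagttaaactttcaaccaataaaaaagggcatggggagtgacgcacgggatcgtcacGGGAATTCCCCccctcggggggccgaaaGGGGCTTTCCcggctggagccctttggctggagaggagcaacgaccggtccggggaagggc
Nfkbia: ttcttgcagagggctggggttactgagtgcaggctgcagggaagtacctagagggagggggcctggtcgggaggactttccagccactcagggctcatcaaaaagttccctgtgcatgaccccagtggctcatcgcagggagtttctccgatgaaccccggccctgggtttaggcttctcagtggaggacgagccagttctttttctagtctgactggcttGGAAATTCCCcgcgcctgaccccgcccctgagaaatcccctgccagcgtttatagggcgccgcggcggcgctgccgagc
Nfkbie: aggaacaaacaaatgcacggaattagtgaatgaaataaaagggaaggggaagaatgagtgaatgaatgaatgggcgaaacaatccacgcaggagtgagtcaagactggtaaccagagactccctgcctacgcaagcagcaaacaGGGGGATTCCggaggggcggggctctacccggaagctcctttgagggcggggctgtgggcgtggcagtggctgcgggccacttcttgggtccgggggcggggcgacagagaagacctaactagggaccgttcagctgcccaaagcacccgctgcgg
Tnfaip3: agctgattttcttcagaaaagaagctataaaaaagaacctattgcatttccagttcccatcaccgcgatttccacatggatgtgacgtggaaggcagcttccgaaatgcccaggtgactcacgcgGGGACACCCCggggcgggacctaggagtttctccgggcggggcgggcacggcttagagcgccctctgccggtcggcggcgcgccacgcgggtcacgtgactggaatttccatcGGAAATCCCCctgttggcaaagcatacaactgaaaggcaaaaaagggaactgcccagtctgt
Rela: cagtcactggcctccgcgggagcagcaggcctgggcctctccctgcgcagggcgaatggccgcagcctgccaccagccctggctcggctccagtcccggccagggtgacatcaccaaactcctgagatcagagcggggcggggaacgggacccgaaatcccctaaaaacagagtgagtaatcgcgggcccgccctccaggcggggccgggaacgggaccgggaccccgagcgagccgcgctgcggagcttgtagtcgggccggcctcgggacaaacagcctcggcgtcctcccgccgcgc
The Nfkb2 window is chr19:46304487-46304786 on the plus strand. The Nfkbia window is chr12:55492598-55492897 on the minus strand. The Nfkbie window is chr17:45555450-45555749 on the plus strand. The Tnfaip3 window is chr10:19015361-19015660 on the minus strand. The Rela window is chr19:5637291-5637590 on the plus strand. The Nfkb2 window held overlapping matches from -39 to -29 and another from -11 to -2, counted from the start of transcription. A match lay from -29 to -20 before Nfkbia and from -106 to -97 before Nfkbie. Tnfaip3 had matches from -125 to -116 and from -12 to -3. A match describes these letters and does not show that the site was bound in these cells.

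Libraries held 17007268 to 21311831 counts. Agps itself had 43.9 and 35.6 CPM in KO cells with TGF-β, 265 and 266 CPM in parental cells with TGF-β, 32.9 and 29.3 CPM in untreated KO cells and 357 and 330 CPM in untreated parental cells, so the libraries followed their labels. Summed epithelial markers (4 of 5 tested, Epcam not tested) ran from 3234 to 3448 CPM in KO cells with TGF-β, 3125 to 3327 CPM in parental cells with TGF-β, 4181 to 4506 CPM in untreated KO cells and 5801 to 6396 CPM in untreated parental cells. The sum joins genes that moved apart. In KO cells mean Cdh1 went from 302 CPM untreated to 52.3 CPM with TGF-β, and Krt19 from 1168 to 149 CPM. Krt18 went from 2077 to 2252 CPM there, and Krt8 from 796 to 887 CPM. In parental cells all 4 were called lower with TGF-β. Summed immune markers stayed between 17.2 and 32.9 CPM over all libraries, with Ptprc, Cd3e, Adgre1 and Itgam too low to test. Endothelial markers summed to 6.71 to 8.24 CPM in KO cells with TGF-β, 76.5 CPM in both libraries of parental cells with TGF-β, and at most 1.58 CPM in untreated cells, with Kdr and Tek too low to test. With TGF-β this sum was nearly all Cdh5, at a mean of 6.69 CPM in KO cells and 75.6 CPM in parental cells. Pecam1 had a mean of at most 0.848 CPM in every group. The part of these markers in the results below was not tested. In bulk RNA, fewer cells of a type and less RNA per cell cannot be told apart.

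Some of the 10 genes differed widely between the untreated replicates in both lines. The share of all genes higher in replicate 1 was not counted, so these gaps cannot be called particular to the pathway. In untreated parental cells 9 of the 10 genes were higher in replicate 1 than in replicate 2, all but Tnfaip2, against 7 of 10 in each other group. The widest gap there was in Nfkbia, with 116 CPM in replicate 1 and 61.2 CPM in replicate 2. Nfkbiz, a nuclear IκB protein outside the 10, had 143 CPM in replicate 1 and 44.3 CPM in replicate 2 of these cells. In untreated KO cells the widest gap was in Tnfaip2, with 4.06 CPM in replicate 1 and 14.0 CPM in replicate 2. Calls that end without 1 library are therefore given beside each gene; a group left with 1 library is then assumed to vary like the others.

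**Figure D1:**
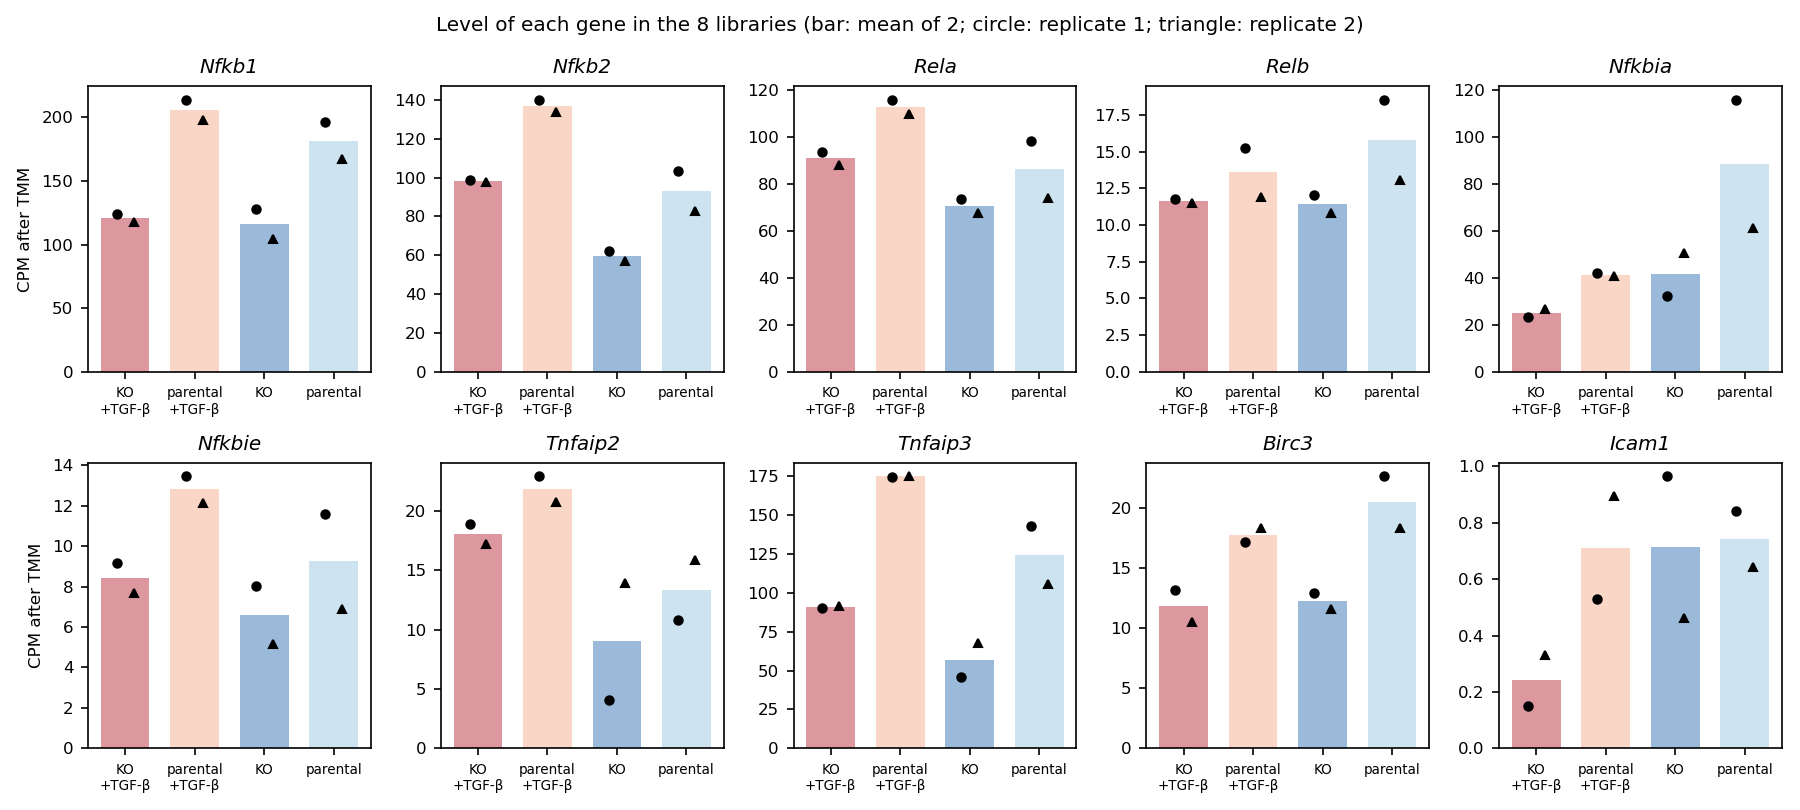
Level in CPM of each of the 10 genes in the 4 groups. Bars are means of 2 libraries, circles replicate 1 and triangles replicate 2; Nfkb1 in KO cells lies below both parental libraries in each condition, while the 2 untreated parental libraries of Nfkbia lie at 116 and 61.2 CPM.

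Nfkb1 encodes p105, the precursor of the p50 subunit. The gene (ENSMUSG00000028163) lies on chromosome 3 at chr3:135584655-135691547 on the minus strand of GRCm38. It had 124 and 118 CPM in KO cells with TGF-β, 214 and 198 CPM in parental cells with TGF-β, 128 and 104 CPM in untreated KO cells and 196 and 167 CPM in untreated parental cells. All 4 KO libraries lay below all 4 parental libraries. With TGF-β the KO level was 58.8% of the parental level (log2 change -0.77, SE 0.11, adjusted p = 9.17e-04), and in untreated cells it was 64.0% (-0.64, SE 0.11, adjusted p = 0.00324). Both calls held under every alternative run. The TGF-β change was 0.06 (SE 0.11, adjusted p = 0.739) in KO cells, where the libraries overlapped, and 0.18 (SE 0.11, adjusted p = 0.229) in parental cells, where they did not.

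Genes on chromosome 3 were lower in KO cells as a whole, and Nfkb1 alone of the 10 lies there. The median change of the 764 genes tested there was -0.30 with TGF-β and -0.28 in untreated cells, and 30.4% and 24.9% of them were lower in KO cells. Outside chromosomes 3, 8, 15 and X the medians were 0.04 and 0.03, with 6.96% and 4.62% lower. Within 5 Mb on each side of Nfkb1, 20 of 42 genes tested were lower in KO cells in each condition, with medians of -0.33 with TGF-β and -0.35 untreated. On chromosome 3, 114 genes with TGF-β and 124 untreated had a change below that of Nfkb1. The part of the chromosome in the Nfkb1 change was not tested. The other 9 genes lie on chromosomes 7, 9, 10, 12, 17 and 19, whose medians in either condition are plotted with them.

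**Figure D2:**
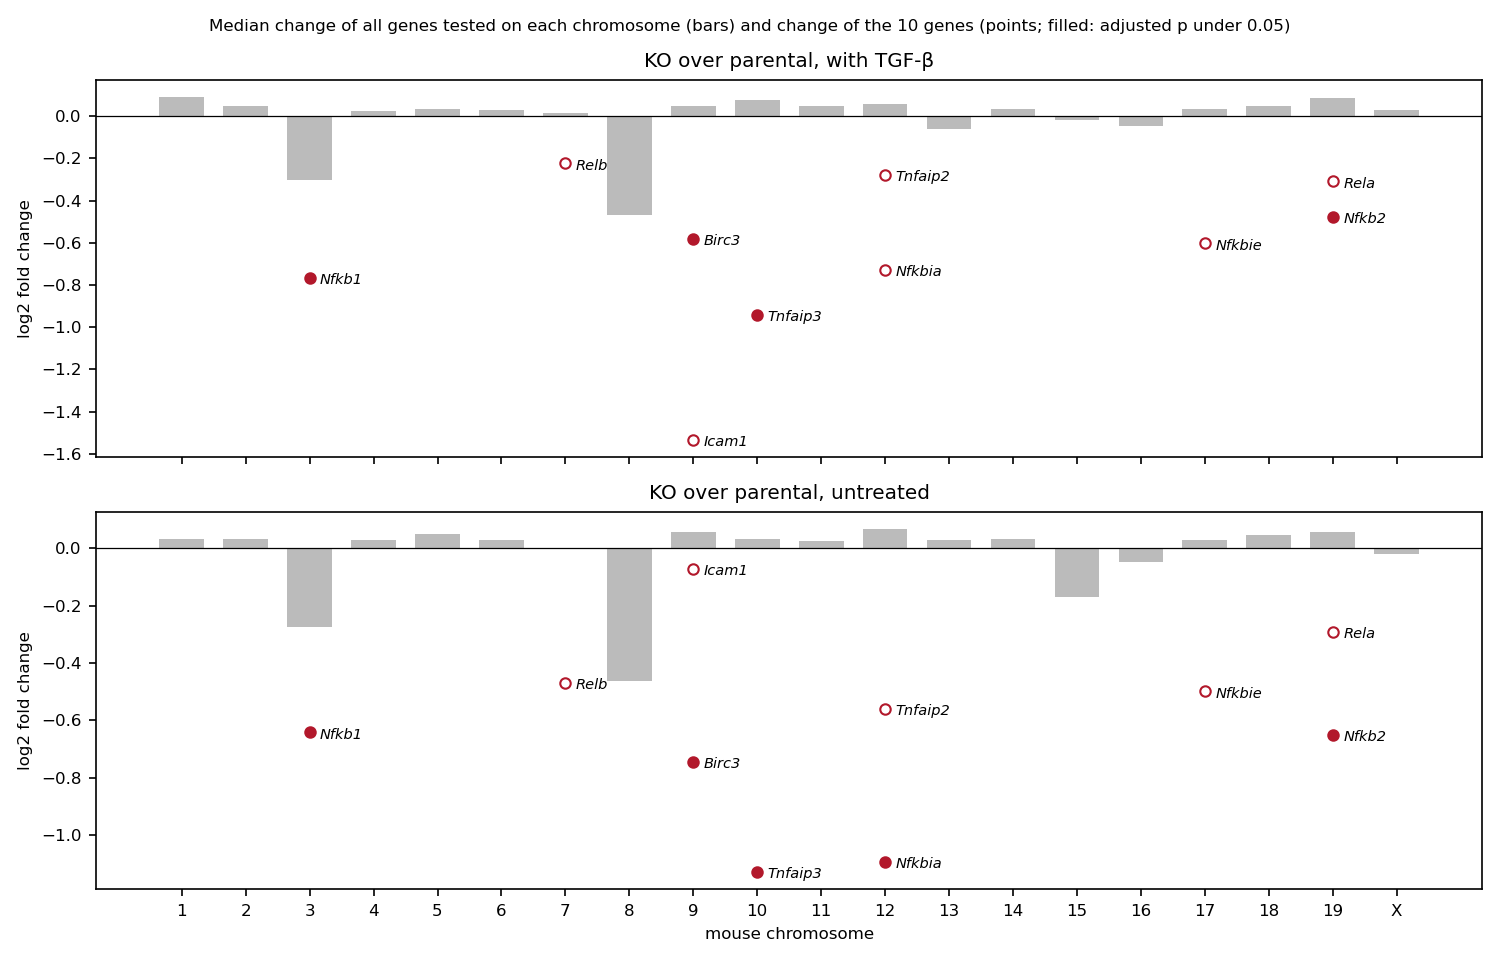
Median log2 change of KO over parental cells for all genes tested on each chromosome (grey bars) and of the 10 genes (points; filled where the adjusted p is under 0.05), with TGF-β above and untreated below. Chromosomes 3 and 8 have medians of -0.30 and -0.47 with TGF-β; Nfkb1 lies on the first, and none of the 10 on the second.

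Nfkb2 encodes p100, the precursor of p52 and the product at the centre of the alternative NF-κB pathway. It is ENSMUSG00000025225 at chr19:46304320-46312385 on the plus strand. Its levels were 98.9 and 97.9 CPM in KO cells with TGF-β, 140 and 134 CPM in parental cells with TGF-β, 62.0 and 56.9 CPM in untreated KO cells and 104 and 82.9 CPM in untreated parental cells. Every KO library lay below both parental libraries of the same condition, and every library with TGF-β above both untreated libraries of the same line. The rise with TGF-β was 0.73 (SE 0.11, adjusted p = 2.44e-04) in KO cells and 0.55 (SE 0.11, adjusted p = 0.00161) in parental cells. In untreated cells the KO level was 63.7% of the parental level (-0.65, SE 0.11, adjusted p = 0.00239). These 3 calls held under every alternative run.

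With TGF-β, Nfkb2 in KO cells was at 71.8% of the parental level (-0.48, SE 0.11, adjusted p = 0.0105). That call ended without any 1 of the 4 libraries compared, with an adjusted p of 0.0657 or 0.0878 without KO replicate 1 or 2 and 0.0947 or 0.0532 without parental replicate 1 or 2, while the change stayed between -0.51 and -0.45. Opposite-strand genes, AC114539.1 and Psd, overlap 18.1% of the exonic bases of Nfkb2. Mean levels of AC114539.1 were 6.09 CPM in KO cells with TGF-β, 9.69 CPM in parental cells with TGF-β, 5.44 CPM in untreated KO cells and 6.44 CPM in untreated parental cells. Psd was lower still, at a mean of 4.97 CPM or less in every group. Whether counting used strand is not given, so reads of these genes and of Nfkb2 cannot be told apart in the overlap.

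Rela encodes p65, the subunit that carries the transactivating domain in the common p50 and p65 dimer. The gene (ENSMUSG00000024927) is at chr19:5637483-5648130 on the plus strand. It had 93.8 and 88.2 CPM in KO cells with TGF-β, 116 and 110 CPM in parental cells with TGF-β, 73.5 and 67.7 CPM in untreated KO cells and 98.4 and 74.2 CPM in untreated parental cells. In each condition both KO libraries were below both parental ones, by a narrow margin in untreated cells. Differences of KO from parental cells did not pass, at -0.31 (SE 0.12, adjusted p = 0.109) with TGF-β and -0.29 (SE 0.12, adjusted p = 0.158) untreated. With only the 2 groups compared in the fit, the one with TGF-β passed (adjusted p = 0.0128). The untreated difference was -0.48 (adjusted p = 0.0145) without untreated parental replicate 2, and the one with TGF-β had an adjusted p of 0.0347 or 0.0346 without untreated parental replicate 1 or 2.

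Rela rose with TGF-β by 0.37 (SE 0.12, adjusted p = 0.0325) in KO cells and by 0.39 (SE 0.12, adjusted p = 0.0252) in parental cells. In KO cells the adjusted p was 0.142 without untreated KO replicate 2, 0.162 or 0.0717 without KO replicate 1 or 2 with TGF-β, and 0.0518 or 0.0519 without parental replicate 1 or 2 with TGF-β. In parental cells the rise was 0.60 without untreated replicate 1 and 0.19 (adjusted p = 0.230) without untreated replicate 2, and the adjusted p was 0.139 or 0.0729 without replicate 1 or 2 with TGF-β.

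Relb encodes the subunit that pairs with p52 in the alternative pathway, and lies at chr7:19606217-19629438 on the minus strand (ENSMUSG00000002983). Its levels were 11.8 and 11.5 CPM in KO cells with TGF-β, 15.3 and 11.9 CPM in parental cells with TGF-β, 12.1 and 10.8 CPM in untreated KO cells and 18.6 and 13.1 CPM in untreated parental cells. KO and parental libraries were separate within each condition, narrowly so with TGF-β, while treated and untreated libraries overlapped in both lines. No Relb change passed: -0.22 (SE 0.19, adjusted p = 0.468) for KO over parental cells with TGF-β, -0.47 (SE 0.18, adjusted p = 0.124) for KO over parental cells untreated, 0.03 (SE 0.19, adjusted p = 0.928) for TGF-β in KO cells and -0.22 (SE 0.18, adjusted p = 0.372) for TGF-β in parental cells. With no filter on low counts the untreated difference of KO from parental cells passed (adjusted p = 0.0466). Without untreated parental replicate 2 the untreated difference passed, at -0.70 (adjusted p = 0.0236).

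Nfkbia encodes IκBα, the inhibitor that NF-κB itself induces and that shuts the pathway off after a signal. It is ENSMUSG00000021025 at chr12:55489410-55492647 on the minus strand, and its promoter window holds the κB match shown above. It had 23.4 and 26.6 CPM in KO cells with TGF-β, 41.9 and 40.9 CPM in parental cells with TGF-β, 32.2 and 50.9 CPM in untreated KO cells and 116 and 61.2 CPM in untreated parental cells. The groups did not overlap in any of the 4 comparisons, and replicates differed more in untreated than in treated cells of both lines. With TGF-β Nfkbia fell by 1.10 (SE 0.26, adjusted p = 0.00531) in parental cells, or by 0.57 (adjusted p = 0.0378) without untreated replicate 1. Nfkbia was the only one of the 10 to pass as lower with TGF-β in either line.

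In KO cells the fall of Nfkbia was -0.73 (SE 0.27, adjusted p = 0.0467), to 60.1% of the untreated level. That call ended without untreated KO replicate 2 (-0.37, adjusted p = 0.334), without KO replicate 1 or 2 with TGF-β (adjusted p = 0.234 or 0.117), without parental replicate 1 or 2 with TGF-β (0.0594 or 0.0608), and under DESeq2 (0.146). In untreated cells the KO level was 46.8% of the parental level (-1.09, SE 0.26, adjusted p = 0.0161), but the difference was -0.56 (adjusted p = 0.103) without parental replicate 1 and -0.81 (adjusted p = 0.0771) without KO replicate 1, and the adjusted p was 0.103 with only the 2 groups compared in the fit. With TGF-β the difference of KO from parental cells was -0.73 (SE 0.27, adjusted p = 0.0887), which did not pass. Fits with another estimate of the spread left this difference at -0.73. It did pass in them, with only the 2 groups compared in the fit (adjusted p = 1.96e-04) and with no filter on low counts (7.35e-07). It passed without 1 untreated library, with an adjusted p of 0.0356 or 0.0346 without KO replicate 1 or 2 and 0.00925 or 0.00940 without parental replicate 1 or 2.

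Nfkbie encodes IκBε, another cytoplasmic inhibitor, at chr17:45555703-45563169 on the plus strand (ENSMUSG00000023947). Its levels were low, at 9.15 and 7.70 CPM in KO cells with TGF-β, 13.5 and 12.2 CPM in parental cells with TGF-β, 8.02 and 5.15 CPM in untreated KO cells and 11.6 and 6.91 CPM in untreated parental cells. With TGF-β both KO libraries were below both parental ones, and in untreated cells the lines overlapped. None of its changes passed: -0.60 (SE 0.25, adjusted p = 0.125) for KO over parental cells with TGF-β, -0.50 (SE 0.26, adjusted p = 0.252) for KO over parental cells untreated, 0.36 (SE 0.26, adjusted p = 0.302) for TGF-β in KO cells and 0.46 (SE 0.25, adjusted p = 0.160) for TGF-β in parental cells. The first of these passed with only the 2 groups compared in the fit (adjusted p = 0.0103) and with no filter on low counts (0.0128). Leaving out 1 untreated parental library could make a call: 0.88 (adjusted p = 0.0149) for TGF-β in parental cells without replicate 1, -0.82 (adjusted p = 0.0418) for untreated KO cells without replicate 2, and an adjusted p of 0.0472 or 0.0470 for KO cells with TGF-β without replicate 1 or 2.

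Tnfaip3 encodes A20, a ubiquitin-editing enzyme that is induced by NF-κB and stops signals between receptors and IκB kinase. The gene (ENSMUSG00000019850) is at chr10:19000910-19015657 on the minus strand. It had 90.4 and 91.5 CPM in KO cells with TGF-β, 175 and 175 CPM in parental cells with TGF-β, 46.1 and 67.7 CPM in untreated KO cells and 143 and 106 CPM in untreated parental cells. All KO libraries lay below all parental libraries, and every library with TGF-β above the untreated libraries of its line. In KO cells with TGF-β the level was 52.0% of the parental level (-0.94, SE 0.17, adjusted p = 0.00262), and in untreated KO cells 45.7% (-1.13, SE 0.17, adjusted p = 0.00113). Both held under every alternative run, and among the 10 genes these were the lowest changes that passed in each condition.

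With TGF-β Tnfaip3 rose by 0.68 (SE 0.17, adjusted p = 0.00716) in KO cells and by 0.49 (SE 0.17, adjusted p = 0.0328) in parental cells. The call in KO cells held under every alternative run, with a rise of 0.43 (adjusted p = 0.0434) without untreated replicate 1. In parental cells it was 0.28 (adjusted p = 0.222) without untreated replicate 2, and the adjusted p was 0.108 or 0.115 without parental replicate 1 or 2 with TGF-β and 0.0597 or 0.0580 without KO replicate 1 or 2 with TGF-β. The levels with TGF-β were nearly equal between replicates in each line.

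Birc3 encodes cIAP2, a ubiquitin ligase of the TNF receptor complex and a survival gene induced by NF-κB. It is ENSMUSG00000032000 at chr9:7848699-7873186 on the minus strand; 1.28% of its 50-base stretches are shared with its paralog Birc2. It had 13.2 and 10.5 CPM in KO cells with TGF-β, 17.2 and 18.4 CPM in parental cells with TGF-β, 12.9 and 11.6 CPM in untreated KO cells and 22.7 and 18.3 CPM in untreated parental cells. All KO libraries lay below all parental libraries. The KO level was 66.8% of the parental level with TGF-β (-0.58, SE 0.16, adjusted p = 0.0254) and 59.7% untreated (-0.74, SE 0.15, adjusted p = 0.00801). With TGF-β the call ended without KO replicate 2 (-0.41, adjusted p = 0.218) and without parental replicate 1 or 2 (adjusted p = 0.0909 or 0.149), and the untreated call ended without parental replicate 1 (-0.59, adjusted p = 0.0565). TGF-β changes of Birc3 were -0.05 (SE 0.16, adjusted p = 0.850) in KO cells and -0.21 (SE 0.15, adjusted p = 0.304) in parental cells.

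Tnfaip2, a gene induced by tumour necrosis factor, lies at chr12:111442469-111455018 on the plus strand (ENSMUSG00000021281). Its levels were 18.9 and 17.2 CPM in KO cells with TGF-β, 22.9 and 20.8 CPM in parental cells with TGF-β, 4.06 and 14.0 CPM in untreated KO cells and 10.9 and 15.9 CPM in untreated parental cells. Treated libraries were above untreated ones in both lines, and the untreated KO replicates lay far apart. The TGF-β change was 1.00 (SE 0.38, adjusted p = 0.0573) in KO cells and 0.72 (SE 0.37, adjusted p = 0.151) in parental cells. Both passed with only the 2 groups compared in the fit (adjusted p = 0.0494 and 0.00998) and with no filter on low counts (1.64e-08 and 1.23e-04). The changes hardly moved in those fits, at 1.00 in KO cells and 0.70 in parental cells in each, so the estimated spread differed and not the size. Without untreated KO replicate 2 the change in KO cells was 2.15 (adjusted p = 1.33e-05), and without untreated parental replicate 1 or 2 its adjusted p was 0.0323 or 0.0335; without untreated KO replicate 1 or 2 the change in parental cells passed, with an adjusted p of 0.00383 or 0.00394.

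The difference of untreated KO from parental cells in Tnfaip2 was -0.56 (SE 0.39, adjusted p = 0.415), with overlapping libraries. It passed with no filter on low counts (adjusted p = 0.00982), at a nearly equal -0.58. It was -1.72 (adjusted p = 6.54e-04) without KO replicate 2 and 0.07 (adjusted p = 0.907) without KO replicate 1, so its direction rested on 1 library. With TGF-β it was -0.28 (SE 0.37, adjusted p = 0.669), with the KO libraries below the parental ones.

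Icam1, an adhesion molecule that leukocytes bind and a common readout of NF-κB, had few counts in every group. The gene (ENSMUSG00000037405) is at chr9:21015985-21028817 on the plus strand. It had 0.152 and 0.333 CPM in KO cells with TGF-β, 0.530 and 0.894 CPM in parental cells with TGF-β, 0.966 and 0.464 CPM in untreated KO cells and 0.843 and 0.644 CPM in untreated parental cells. Summed over the 2 libraries, these are 9 counts in KO cells with TGF-β, 25 in parental cells with TGF-β, 30 in untreated KO cells and 27 in untreated parental cells. No change passed, the largest in size being -1.55 (SE 0.58, adjusted p = 0.0512) for TGF-β in KO cells and -1.54 (SE 0.60, adjusted p = 0.103) for KO over parental cells with TGF-β. With no filter on low counts both passed (adjusted p = 0.0157 and 0.0424). The first was -1.99 (adjusted p = 0.0236) without untreated KO replicate 2. Gm47079 on the opposite strand overlaps 11.7% of the exonic bases of Icam1.

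Read against all genes, the counts of the 10 differ between the 2 kinds of comparison. For KO over parental cells with TGF-β, 4 of the 10 passed as lower and 0 as higher, where 11.1% of all genes tested passed as lower and 6.82% as higher. In untreated cells 5 passed as lower and 0 as higher, where the shares of all genes were 8.94% and 4.72%. At an unadjusted p under 0.05, 8 with TGF-β and 7 untreated were lower and 0 were higher. At that threshold 2523 of all 14641 genes tested were lower and 1932 higher with TGF-β. Untreated, 2213 were lower and 1607 higher. The median change of the 10 was -0.59 with TGF-β and -0.60 untreated, against 0.01 and 0.00 over all genes. Leaving out 1 library at a time gave 2 or 3 lower with TGF-β without any 1 of the libraries compared and 7 without either untreated parental library. In untreated cells it gave 3 lower without parental replicate 1 and 8 without parental replicate 2.

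For TGF-β in KO cells 3 of the 10 passed as higher and 1 as lower, where 20.9% of all genes passed as higher and 20.6% as lower. In parental cells the count was again 3 higher and 1 lower, against 21.3% and 21.2% of all genes. The median change of the 10 was 0.21 in KO cells and 0.28 in parental cells, against 0.00 and 0.01 over all genes. With so many genes changed by TGF-β, 4 called of 10 is near the share of all genes called in either direction, 41.4% in KO cells and 42.5% in parental cells. In KO cells 2 were higher and 0 lower without any 1 of the 4 libraries with TGF-β. In parental cells 1 was higher without untreated parental replicate 2 or without either parental library with TGF-β, 2 were higher without either KO library with TGF-β, and 1 was lower in each case. The comparison of untreated KO with untreated parental cells and that of TGF-β in parental cells share the untreated parental libraries.

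**Figure D3:**
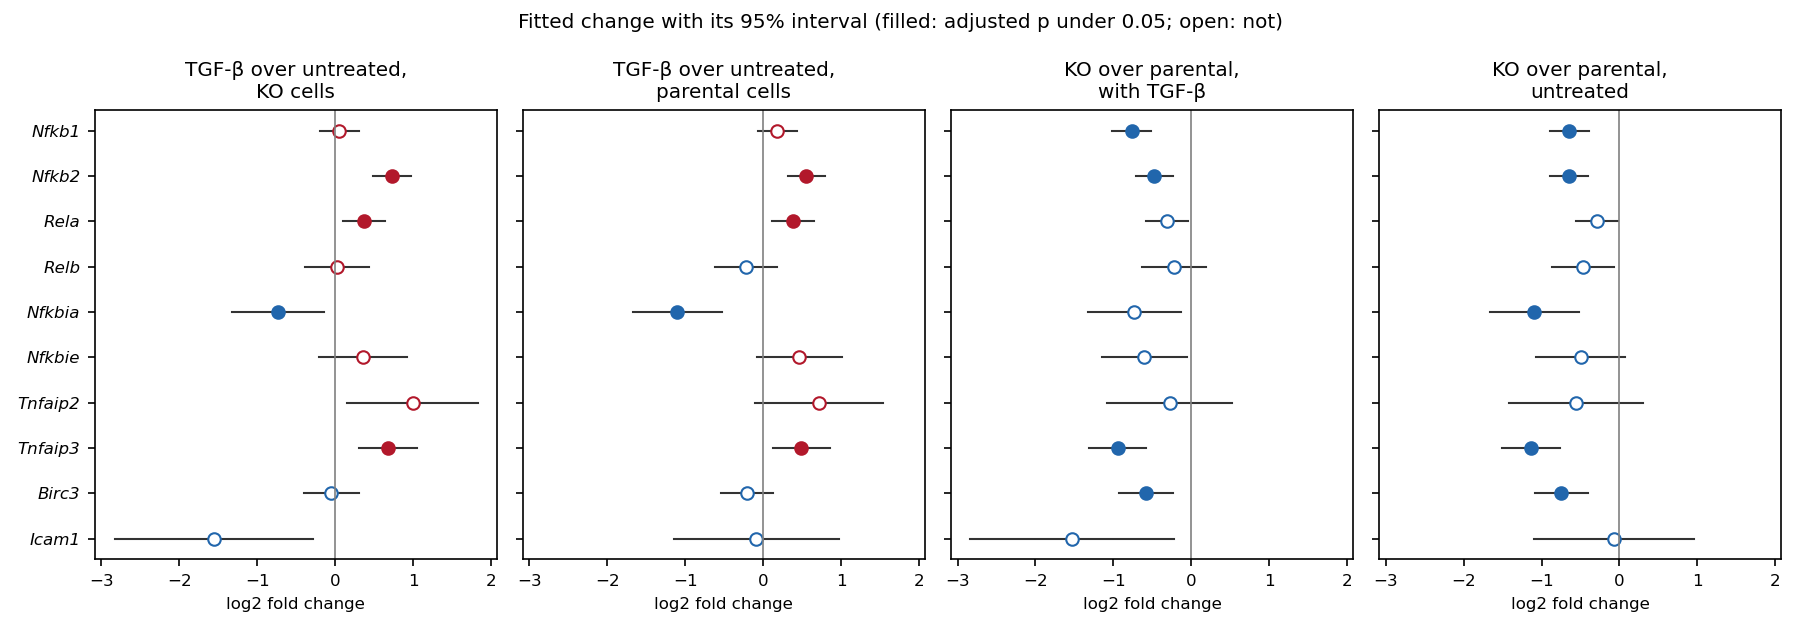
Fitted log2 change of the 10 genes in 4 comparisons, with 95% intervals; filled points have an adjusted p under 0.05. The 2 panels of KO over parental cells show all 10 points below 0, with 4 filled with TGF-β and 5 untreated.

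The difference of the TGF-β change between KO and parental cells was called in 0 of the 10 genes, and by DESeq2 also in 0. Of all genes tested edgeR called 1.25% as higher and 1.15% as lower. At an unadjusted p under 0.05 it was 0 of the 10, where 1066 of all 14641 genes tested were higher and 966 lower. The interval of that difference ran from -0.48 to 0.23 for Nfkb1, from -0.16 to 0.51 for Nfkb2 and from -0.40 to 0.36 for Rela. It ran from -0.45 to 1.18 for Nfkbia and from -0.33 to 0.71 for Tnfaip3. For these genes the data leave room for a difference in either direction of the sizes given. Icam1 had the widest interval, from -3.14 to 0.21. Tnfaip2 was called at 1.44 (adjusted p = 0.0212) without untreated KO replicate 2.

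Per kilobase of exonic length, the 10 fell into a high and a low group, with Icam1 far below both. This length merges all annotated exons of a gene and can exceed that of the transcripts expressed, so the order between genes is approximate. Nfkb1, with 12061 such bases, had the highest CPM of the 10 in each group before division by length. Rela was highest in KO cells with TGF-β, at 29.6 ± 1.3 CPM per kb, and in parental cells with TGF-β, at 36.7 ± 1.5 CPM per kb (SD, n = 2 each). Nfkbia was highest in untreated KO cells, at 25.8 ± 8.2 CPM per kb, and in untreated parental cells, at 55.1 ± 24 CPM per kb (SD, n = 2 each). Its range overlapped that of Rela in untreated KO cells.

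After the first gene, KO cells with TGF-β had Nfkb2 at 21.5, Nfkbia at 15.5, Tnfaip3 at 12.6, Nfkb1 at 10.0, Tnfaip2 at 3.62, Relb at 3.0, Nfkbie at 2.77 and Birc3 at 2.36 CPM per kb. The order in parental cells with TGF-β was Nfkb2 at 29.9, Nfkbia at 25.7, Tnfaip3 at 24.2, Nfkb1 at 17.1, Tnfaip2 at 4.39, Nfkbie at 4.21, Birc3 at 3.55 and Relb at 3.50 CPM per kb. The ranges of Relb, Nfkbie and Birc3 overlapped in order in KO cells with TGF-β, as did those of Tnfaip2 with Nfkbie and of Birc3 with Relb in parental cells with TGF-β.

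Untreated KO cells had Rela at 23.0, Nfkb2 at 13.0, Nfkb1 at 9.64, Tnfaip3 at 7.87, Relb at 2.95, Birc3 at 2.45, Nfkbie at 2.16 and Tnfaip2 at 1.81 CPM per kb. In untreated parental cells the order was Rela at 28.1, Nfkb2 at 20.3, Tnfaip3 at 17.2, Nfkb1 at 15.05, Birc3 at 4.09, Relb at 4.07, Nfkbie at 3.04 and Tnfaip2 at 2.68 CPM per kb. Neighbours overlapped more in untreated cells, with Nfkb1 and Tnfaip3, and Birc3, Nfkbie and Tnfaip2, doing so in KO cells, and Nfkb2, Tnfaip3 and Nfkb1, and the 4 low genes, in parental cells. Icam1 was last in each group, at no more than 0.171 CPM per kb.

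**Figure D4:**
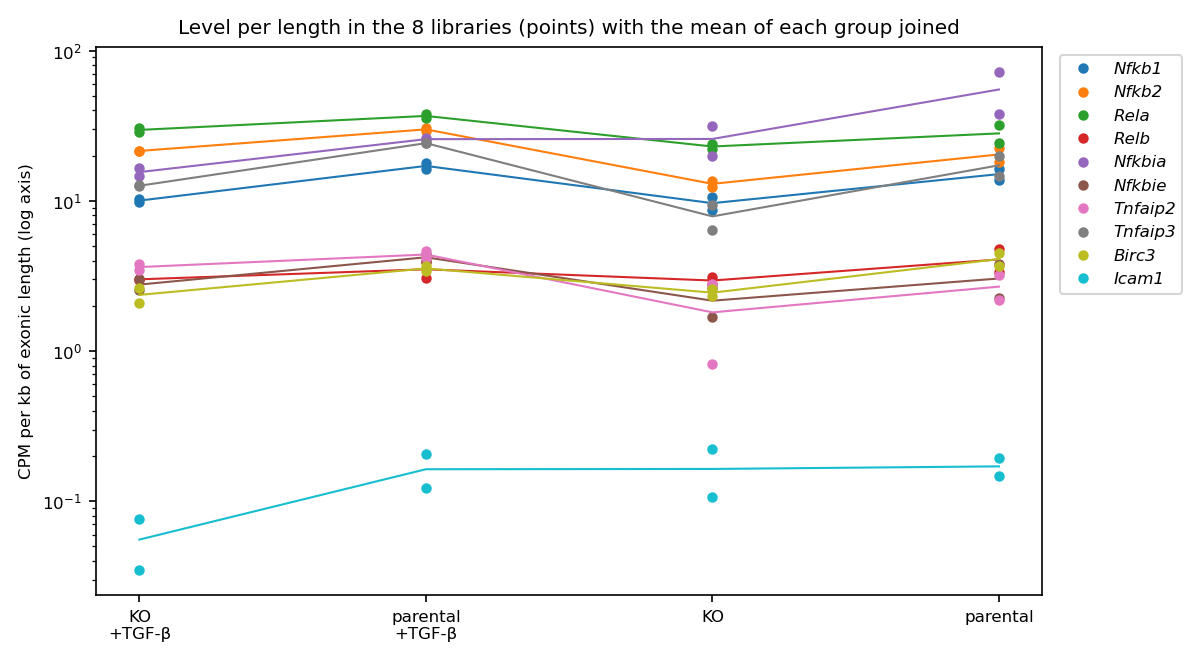
CPM per kb of exonic length (all annotated exons merged) on a log axis for each of the 10 genes in the 8 libraries (points). Group means are joined by lines that only guide the eye. Rela, Nfkb2, Nfkbia, Tnfaip3 and Nfkb1 lie well above the others in the means of every group, and Icam1 lies below all, at 0.0555 to 0.171 CPM per kb.

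Likeness between genes was taken as the root mean square difference of log2 CPM over the 8 libraries after each gene was centred on its mean. Within the 10, the closest were Nfkb1 and Birc3 at 0.170 and Nfkb2 and Rela at 0.195, and the farthest were Tnfaip2 and Icam1 at 1.20. For the 3 genes with the widest range of group means, the most alike of 9325 candidate genes were Phlda1 (0.167) and Irf2bp2 (0.168) for Nfkbia, Mthfsd (0.147) and Slc7a6 (0.162) for Tnfaip3, and Dusp4 (0.281) and Tiparp (0.304) for Tnfaip2. Of these 6 genes, Irf2bp2, Mthfsd, Slc7a6 and Dusp4 lie on chromosome 8 and Tiparp on chromosome 3, both lower in KO cells as a whole. These are descriptions over libraries that share their groups.

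The pathway around the 10 was described with lists of other genes, also chosen with results of these data known. The counts of each list below stand beside these shares of all genes tested. With TGF-β, 20.9% were higher and 20.6% lower in KO cells, and 21.3% and 21.2% in parental cells. For KO over parental cells, 6.82% were higher and 11.1% lower with TGF-β, and 4.72% and 8.94% untreated. Of 5 further Rel and IκB genes, all tested, 0 passed in either direction for KO over parental cells with TGF-β and 2 were lower in untreated KO cells, Nfkbid and Nfkbiz. Nfkbid had 1.40 and 1.44 CPM in untreated KO cells, against 8.01 and 2.64 CPM in untreated parental cells (-1.91, SE 0.46, adjusted p = 0.0178). Nfkbiz had 31.4 and 33.6 CPM in untreated KO cells, against 143 and 44.3 CPM in untreated parental cells (-1.53, SE 0.45, adjusted p = 0.0452). Without untreated parental replicate 1 neither passed (-0.89, adjusted p = 0.192 for Nfkbid, and -0.45, adjusted p = 0.455 for Nfkbiz). Nfkbid also did not pass without untreated KO replicate 1 (0.0547) or with only the 2 groups compared in the fit (0.0827). Nfkbiz did not pass without untreated KO replicate 1 or 2 (0.118 or 0.0898), KO replicate 1 or 2 with TGF-β (0.0601 or 0.0520) or parental replicate 2 with TGF-β (0.0505), and its adjusted p was 0.129 under DESeq2 and 0.116 with only the 2 groups compared. With TGF-β, 1 of the 5 was higher in KO cells and 2 were lower in parental cells.

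Of 14 receptor genes 11 were tested, and with TGF-β 4 were higher and 5 lower in KO cells and 4 higher and 3 lower in parental cells. Tnfrsf1b, the second receptor of tumour necrosis factor, had 102 and 86.4 CPM in KO cells with TGF-β and 23.6 and 19.9 CPM in untreated KO cells (2.11, SE 0.12, adjusted p = 7.85e-08). In parental cells it had 64.0 and 66.8 CPM with TGF-β and 16.9 and 16.5 CPM untreated (1.97, SE 0.12, adjusted p = 1.90e-07). All treated libraries were well above all untreated ones. Tnfrsf12a, the receptor of TWEAK, rose by 0.84 in KO cells and 0.49 in parental cells, while Ltbr, the lymphotoxin beta receptor, fell by 0.57 in KO cells and by 0.68 in parental cells, and Il1r1, an interleukin-1 receptor, fell by 0.70 in KO cells and by 0.65 in parental cells. For KO over parental cells 1 receptor gene was higher and 2 lower in each condition. Of 9 ligand genes 1 was tested, Tnfsf12, which encodes TWEAK; the other 8 did not pass the filter on low counts.

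All 25 genes of kinases and adaptors were tested, and with TGF-β 5 were higher and 4 lower in KO cells and 3 higher and 6 lower in parental cells. Map3k14, the kinase NIK that starts processing of the Nfkb2 product, had 20.2 and 18.3 CPM in KO cells with TGF-β and 10.6 and 8.21 CPM in untreated KO cells (1.04, SE 0.15, adjusted p = 2.01e-04). In parental cells it had 28.0 and 27.8 CPM with TGF-β and 13.3 and 10.95 CPM untreated (1.20, SE 0.15, adjusted p = 5.78e-05). Nfkb2 and this kinase gene were thus both higher with TGF-β in both lines, but Relb of the same pathway passed in neither. Ltbr fell in both lines, as did Tnfsf12, by 0.67 in KO cells and 0.83 in parental cells. Traf3, another adaptor, rose by 0.51 in parental cells. With TGF-β, Map3k14 was lower in KO than in parental cells (-0.53, SE 0.14, adjusted p = 0.0261), between -0.60 and -0.45 without 1 library. Traf5, a receptor adaptor, fell by 2.27 in KO cells and by 2.57 in parental cells, and Ikbke, an IκB kinase relative, fell by 0.58 in KO cells and by 0.89 in parental cells. In KO cells 3 of the 25 were lower and 0 higher than in parental cells in each condition.

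Tradd, an adaptor of the first receptor of tumour necrosis factor, had 5.55 and 6.31 CPM in untreated KO cells, against 12.1 and 11.5 CPM in untreated parental cells (-0.99, SE 0.17, adjusted p = 0.00232). With TGF-β its difference was -0.62 (adjusted p = 0.0245), which did not pass without KO replicate 1 (0.161) or parental replicate 1 or 2 (0.0915 or 0.145). Tradd, like Cyld below, lies on chromosome 8, where the median change of KO over parental cells over all genes tested was -0.47 with TGF-β and -0.46 untreated; the part of the chromosome in these changes was not tested.

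Of 15 ubiquitin regulators, all tested, 5 were higher and 4 lower with TGF-β in KO cells, and 3 higher and 4 lower in parental cells. Rnf11, a known partner of A20, rose by 1.02 in KO cells and by 0.74 in parental cells, Tnip2 rose by 0.71 in KO cells and by 0.77 in parental cells, and Tnip3, like Tnip2 an A20-binding protein, fell by 2.21 in KO cells and by 3.43 in parental cells. For KO over parental cells 1 was higher and 2 lower with TGF-β, and 0 were higher and 3 lower untreated. Cyld, a deubiquitinase that restrains NF-κB as A20 does, had 100 and 85.6 CPM in KO cells with TGF-β, against 142 and 151 CPM in parental cells with TGF-β (-0.66, SE 0.10, adjusted p = 8.17e-04). In untreated cells Cyld had 67.7 and 66.5 CPM in KO cells, against 109 and 103 CPM in parental cells (-0.66, SE 0.10, adjusted p = 9.82e-04). Cyld lies on chromosome 8, with the medians given for Tradd, and the part of the chromosome was not tested here either.

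Of 24 other NF-κB target genes 19 were tested. For KO over parental cells 2 were higher and 7 lower with TGF-β, with a median of -0.57, and 1 was higher and 10 lower untreated, with a median of -0.92. Without untreated parental replicate 1, a setting chosen after seeing the data, the untreated count was 1 higher and 6 lower of these targets, 0 higher and 1 lower of the receptors, 2 lower of the kinases and adaptors, 2 lower of the ubiquitin regulators and 0 lower of the further Rel and IκB genes. With TGF-β, 8 were higher and 6 lower in KO cells, and 5 higher and 10 lower in parental cells. Targets thus moved in both directions with TGF-β, as did all genes tested. More targets were lower than higher in KO cells, where 11.1% of all genes were lower and 6.82% higher with TGF-β. The shares of all genes untreated were 8.94% lower and 4.72% higher.

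Ptgs2, the cyclooxygenase that makes prostaglandins in inflammation, had 1352 and 1354 CPM in KO cells with TGF-β, 1565 and 1271 CPM in parental cells with TGF-β, 26.1 and 70.0 CPM in untreated KO cells and 328 and 484 CPM in untreated parental cells. The lines overlapped with TGF-β and lay far apart without it, where the difference was -3.08 (SE 0.35, adjusted p = 1.84e-04). Cxcl1, a chemokine of neutrophils, had 25.03 and 26.1 CPM in KO cells with TGF-β, against 102 and 69.8 CPM in parental cells with TGF-β (-1.76, SE 0.20, adjusted p = 1.44e-04). Ccl20, a chemokine of lymphocytes and dendritic cells, had 2.88 and 3.16 CPM in KO cells with TGF-β, against 13.9 and 16.0 CPM in parental cells with TGF-β (-2.30, SE 0.25, adjusted p = 1.11e-04).

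Other targets went the other way. Tnfaip8, a regulator of cell death, had 75.7 and 82.2 CPM in KO cells with TGF-β, against 31.2 and 29.2 CPM in parental cells with TGF-β (1.38, SE 0.10, adjusted p = 4.95e-06). Nos2, the inducible nitric oxide synthase, had 9.10 and 10.4 CPM in KO cells with TGF-β, against 3.92 and 4.65 CPM in parental cells with TGF-β (1.18, SE 0.21, adjusted p = 0.00250). Lcn2, an iron-binding lipocalin, had 39.8 and 43.9 CPM in untreated KO cells, against 20.2 and 26.4 CPM in untreated parental cells (0.84, SE 0.16, adjusted p = 0.00440). In none of these 3 did the libraries of the lines overlap.

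**Figure D5:**
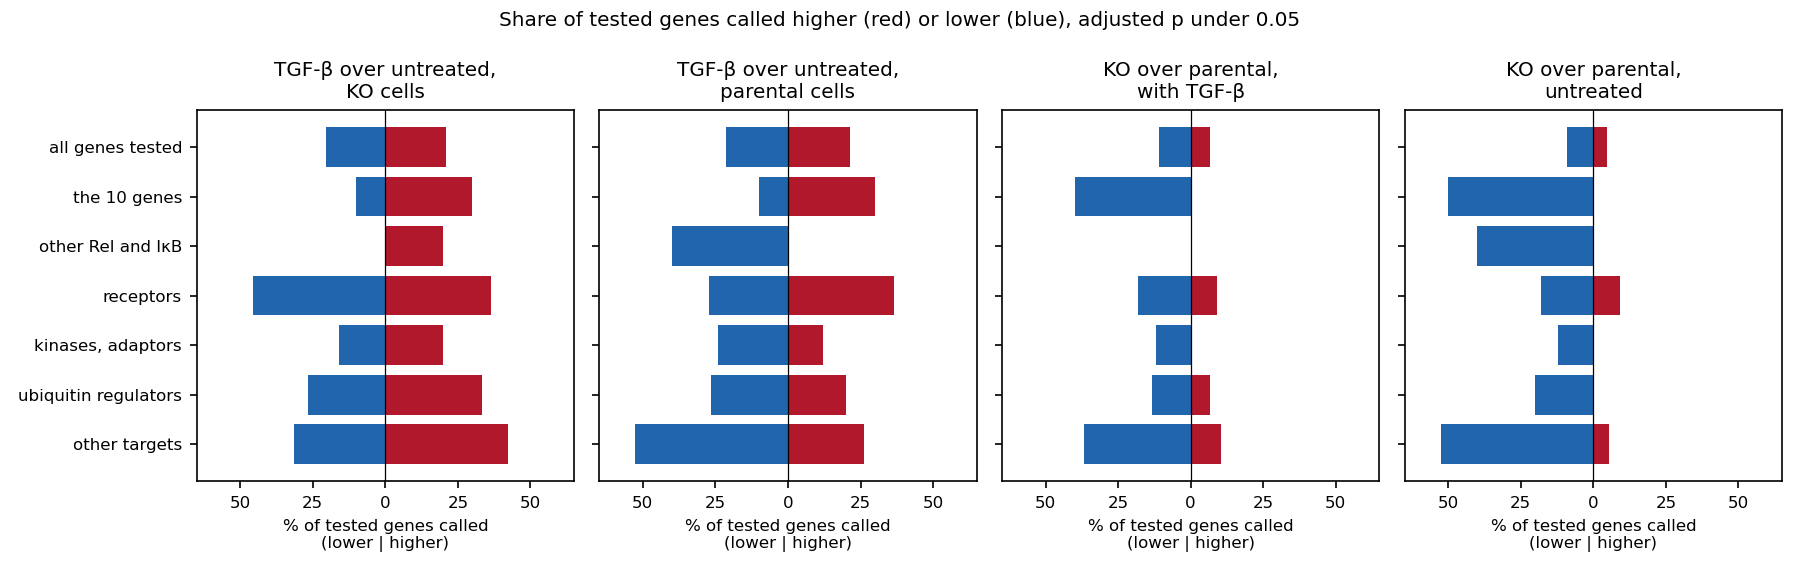
Percent of tested genes called higher (red, to the right) or lower (blue, to the left) in 4 comparisons, for all genes, the 10 genes and 5 lists of the pathway; the list of ligands, with 1 gene tested, is left out. In the panels of KO over parental cells the 10 genes and the other targets have the longest bars to the left, with 4 of 10 and 7 of 19 with TGF-β and 5 of 10 and 10 of 19 untreated.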

How the data were processed

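Polyadenylated RNA of 8 libraries, 2 in each of 4 groups, was sequenced after preparation with a KAPA mRNA HyperPrep kit, according to the labels. Per the submitters' processing notes, the authors used STAR 2.7.1a, featureCounts 1.6.2, DESeq2 1.26.0 and the genome build GRCm38 (mm10). The deposited files hold raw whole counts per gene; the sources used here do not give the annotation release, strand setting or filters. A deposited table of normalized values of the same libraries was not used.

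Counts were scaled by TMM and filtered by filterByExpr (minimum count 10, by group), which kept 14641 of 30946 genes with a count, holding 99.9% of counts. In R 4.3.3, edgeR 4.0.16 was fitted once by quasi-likelihood, with 1 mean for each group and 4 residual degrees of freedom. The 5 contrasts were TGF-β in each line, KO over parental cells in each condition, and the TGF-β change in KO cells minus that in parental cells. Calls are at an adjusted p under 0.05 (Benjamini-Hochberg, within a contrast). SEs come from the F statistic and 95% intervals from the moderated degrees of freedom. The fit was tested on simulated counts first.

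Gene positions and exonic lengths are those of GENCODE M21, promoters those of RefSeq. The 10 genes, the lists and the tests were chosen with earlier results of these data known. Besides the 10 genes and Agps, the rule allowed by name at most the 2 list members of lowest adjusted p in each direction, contrast and list, from an average log2 CPM of 1 upwards, and the 2 genes most like each of 3 members, from an average of 3 upwards. Alternatives were DESeq2 1.42.0, other scalings, no filter, the 2 groups compared alone, a replicate block and leaving out each library.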

Additional observations from a re-analysis of the deposited data

Results flagged for a closer look

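Agps and 5 NF-κB targets outside the 10 genes had a TGF-β change that differed between KO and parental cells by edgeR's test of the difference itself. The difference (TGF-β change in KO cells minus that in parental cells, log2) was 0.73 for Agps (adjusted p = 0.0332), whose change was 0.36 in KO cells and -0.37 in parental cells. For Ptgs2 it was 3.01 (adjusted p = 0.00732), with changes of 4.81 in KO cells and 1.80 in parental cells. Tnfaip8 differed by 1.26 (adjusted p = 7.76e-04), with 0.37 in KO cells and -0.89 in parental cells. Ier3, an immediate early gene, differed by 1.00 (adjusted p = 0.0221). Lcn2 differed by -2.19 (adjusted p = 0.00553), with -5.01 in KO cells and -2.82 in parental cells, and without KO replicate 2 with TGF-β its adjusted p was 0.0528. Ccl20 differed by -1.38 (adjusted p = 0.0427), and its adjusted p ran from 0.0696 to 0.194 without untreated KO replicate 1 or any 1 of the 4 libraries with TGF-β.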

How the results depend on the processing

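Nfkb1 and Tnfaip3 lower in KO cells in both conditions, Nfkb2 lower in untreated KO cells, Nfkb2 higher with TGF-β in both lines, Tnfaip3 higher with TGF-β in KO cells and Nfkbia lower with TGF-β in parental cells held under every alternative run. Without 1 library at a time, all genes called ran from 4701 to 6439 for TGF-β in KO cells, 4466 to 6526 for TGF-β in parental cells, 1188 to 2922 for KO over parental cells with TGF-β, 1476 to 1813 for the same untreated, and 120 to 421 for the difference of the TGF-β changes. Of the 10, higher counts ran from 2 to 4 for TGF-β in KO cells and 1 to 4 in parental cells, and 0 to 1 for the difference; lower counts ran from 0 to 1 for TGF-β in KO cells, 2 to 7 for KO over parental cells with TGF-β and 3 to 8 untreated. Other settings moved these counts: 2 of the 10 lower for TGF-β in KO cells with no filter, 0 with DESeq2; 7 lower for KO over parental cells with TGF-β with no filter or with the 2 groups alone; 1111 genes called untreated with the 2 groups alone; and 855 genes called for the difference with no filter. With no filter, changes of the 10 that became calls stayed near their values in the main fit. Their lower adjusted p came with another estimate of the spread and little change in size. Scaling alternatives moved no count of the 10 and shifted the median of all genes by under 0.05 (log2).

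Changes that crossed 0 did so without 1 library, in each case with no call in all libraries. Lowest and highest values without 1 library were, for TGF-β in KO cells, -0.085 and 0.21 for Nfkb1, -0.053 and 0.11 for Relb and -0.22 and 0.11 for Birc3. For TGF-β in parental cells they were -0.45 and 0.052 for Relb and -0.50 and 0.26 for Icam1. For untreated KO over parental cells they were -1.72 and 0.066 for Tnfaip2 and -0.68 and 0.37 for Icam1. For the difference of the TGF-β changes they were -0.26 and 0.031 for Nfkb1, -0.23 and 0.17 for Rela, -0.029 and 0.48 for Relb, -0.17 and 0.75 for Nfkbia, -0.53 and 0.25 for Nfkbie, -0.34 and 1.44 for Tnfaip2, -0.061 and 0.49 for Tnfaip3 and -0.014 and 0.33 for Birc3.

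The labels do not say what a replicate number shares. Deviations of same-numbered libraries correlated at 0.0218 to 0.308 over 6 pairs of groups, positive in each but not above 0.1 in each, so the numbers were not taken as a pairing. With a replicate block 679 genes were called for the difference of the TGF-β changes, against 352 without it, and 2 of the 10 were lower for TGF-β in KO cells, against 1. The block made calls for Nfkbie (TGF-β in parental cells, adjusted p = 0.0290; KO over parental cells with TGF-β, 0.0197), Tnfaip2 and Icam1 (TGF-β in KO cells, 0.0138 and 0.0491), Relb (KO over parental cells untreated, 0.0400) and Rela (KO over parental cells with TGF-β, 0.0334).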
